A study of Homo sapiens with 9 samples.

Results

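Nucleoporins and nuclear transport receptors were followed by mRNA in MIA PaCa-2 cells, a pancreatic cancer cell line, treated with either of 2 kinase inhibitors. The genes were chosen by name alone among protein-coding genes: symbols of nucleoporins (NUP numbers and letters, RANBP2, TPR, NDC1, POM121, AAAS, RAE1 and SEH1L), importin alpha (KPNA), importin beta family members (KPNB1, IPO and TNPO), exportins (XPO, XPOT and CSE1L) and RAN. The rule found 56 genes of 58735 in the table, of which 19951 are protein-coding. They comprise 30 nucleoporins, 25 transport receptors and the GTPase Ran. Measured expression had no part in the choice of each gene, although the group was proposed with earlier results of these data known.

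All cells, labelled wild type, were kept for 24 h in 1 of 3 conditions, with 3 RNA-seq libraries each. Control cells received 0.1% DMSO, the solvent. The other groups received 1 µM SCH772984, an inhibitor of the kinases ERK1 and ERK2, or 1 µM compound 1, an inhibitor of the kinases TBK1 and IKKε. The labels number the replicates but do not say whether they were separate cultures, so p-values measure the spread between these libraries, which may be technical. Gene positions are those of the deposited table, on GRCh38.

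The nuclear pore complex is a large channel through the nuclear envelope, built from many copies of a set of nucleoporins arranged as stacked rings, a membrane anchor, a central channel filled with disordered phenylalanine-glycine repeats, cytoplasmic filaments and a nuclear basket. Importins and exportins, together called karyopherins, bind cargo and these repeats and carry cargo through. Ran gives the direction: bound to GTP in the nucleus, it releases cargo from importins and loads cargo onto exportins. In dividing human cells the pore is taken apart and rebuilt at each mitosis.

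The libraries held 9464432 to 13887859 counts. Levels are CPM, which puts counts of all 9 libraries on one scale after TMM normalization. Keratin genes KRT8 and KRT18 and vimentin (VIM) were expressed in every library, whereas EPCAM, an epithelial marker, had 0 counts in all 9. KRT8 had 2415 to 2554 CPM with DMSO and 724 to 819 with SCH772984, and KRT18 had 828 to 913 and 155 to 175, with no overlap between these groups. Of 11 markers of blood, vascular, stromal, liver and normal pancreatic cells, 8 had 0 counts throughout, and their summed counts were 1 to 4 per library with DMSO, 2 to 5 with compound 1 and 29 to 48 with SCH772984. The stromal collagen gene COL1A1 made up most of this, with 28 to 48 counts in the SCH772984 libraries and 1 to 4 in each of the other 6, and its part in the results was not tested. The 10 ERK output genes, which served to check the drug, were all lower with SCH772984, with a median log2 fold change of −4.63, and 0 of them passed the edgeR test with compound 1 (2 were lower and 1 was higher at an unadjusted p under 0.05, and 0 passed with DESeq2). The summed CPM of 10 cell division markers was 4491 to 4583 with DMSO, 4145 to 4597 with compound 1 and 1224 to 1301 with SCH772984. Mitochondrially encoded genes took 3.33 to 3.98% of counts with DMSO, 3.41 to 3.92% with compound 1 and 6.23 to 7.52% with SCH772984.

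With SCH772984, most of the nuclear transport machinery fell together. Of 53 genes that could be tested, 45 were lower than with DMSO and 1, the importin alpha gene KPNA5, was higher at an edgeR adjusted p under 0.05 (Benjamini-Hochberg over 13834 genes). In the same comparison 35.5% of all genes tested were lower and 37.2% were higher. The median log2 fold change of the 53 genes was −0.87, against 0.03 for all genes tested, and 17 of them were at least 2-fold lower and 0 at least 2-fold higher, against 10.6% and 18.2% of all genes. Falls were seen in each role, in Ran, both importin classes, the exportins and each ring of the pore. DESeq2 on the same genes gave the same counts, 45 lower and 1 higher, and where 0 genes of a role are given as higher below, 0 were higher at an unadjusted p under 0.05 too. The 7 genes that did not pass the test were RANBP2, TPR, AAAS, NUPL2, KPNA6, IPO13 and TNPO2. KPNA7 (0 to 3 counts per library) and NUP210L (2 to 5 counts) were too low to test, and NUP62CL had 0 counts in every library.

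With compound 1, few of these genes moved. At the same threshold 2 of 53 were lower, NUP188 and POM121, and 0 were higher, against 0.374% and 0.49% of the 12849 genes tested. At an unadjusted p under 0.05, 12 were lower and 1 was higher, against 7.69% and 7.35% of all genes. The 12 were the receptors KPNB1, IPO9, TNPO3, CSE1L, XPO5, XPO6 and XPO7 and the pore genes NUP188, NUP210, POM121, NUP214 and NUP98, and the 1 was NUPL2. DESeq2 called 3 lower, NUP214 in addition, and 0 higher, against 0.926% and 0.911% of all genes. By edgeR 0 were at least 2-fold lower or higher, against 0% and 0.0467% of all genes. The median log2 fold change was −0.11, against 0.00 for all genes, and 44 of 53 values were below 0. Between the inhibitors directly, 42 genes were lower with SCH772984 than with compound 1 and 0 were higher by edgeR and by DESeq2 (1, IPO13, at edgeR's unadjusted p under 0.05), with 32.6% of all genes lower and 33.7% higher in that comparison. There the median log2 difference was −0.75, and 14 genes were at least 2-fold lower, against 10.1% of all genes lower and 16.5% higher by that much.

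**Figure D1:**
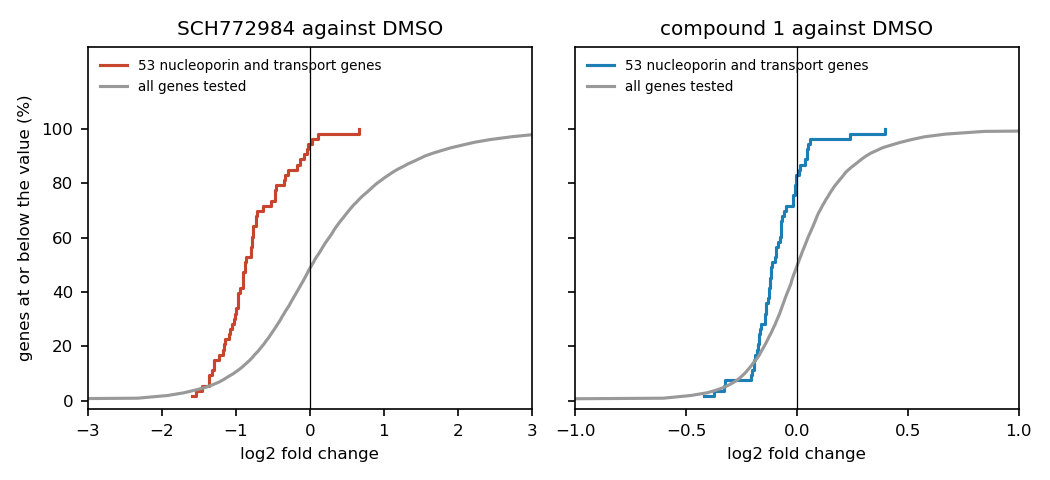
Share of genes (vertical axis, percent) at or below each log2 fold change against DMSO (horizontal axis) for SCH772984 on the left and compound 1 on the right, with the 53 tested nucleoporin and transport genes as a coloured step line and all genes tested as a grey line. The coloured line lies far left of the grey line with SCH772984 (medians −0.87 and 0.03) and slightly left of it with compound 1 (medians −0.11 and 0.00); the horizontal scales differ.

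Summed over all 56 genes, transcripts came to 11637 to 12012 CPM in the DMSO libraries, 10263 to 11363 CPM with compound 1 and 6305 to 6778 CPM with SCH772984. The SCH772984 libraries lay far below the others, and the compound 1 libraries lay below the lowest DMSO library by a smaller margin. As a share of all counts the genes made up 1.11 to 1.14%, 0.978 to 1.13% and 0.676 to 0.723%. RNA was measured in bulk, so a lower share of dividing cells and less of these transcripts in each cell cannot be told apart. CPM gives levels relative to the other counts of a library, and the amount of RNA per cell was not measured. The falls accompanied the lower division markers given above, and the part of those markers in the result was not tested.

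**Figure D2:**
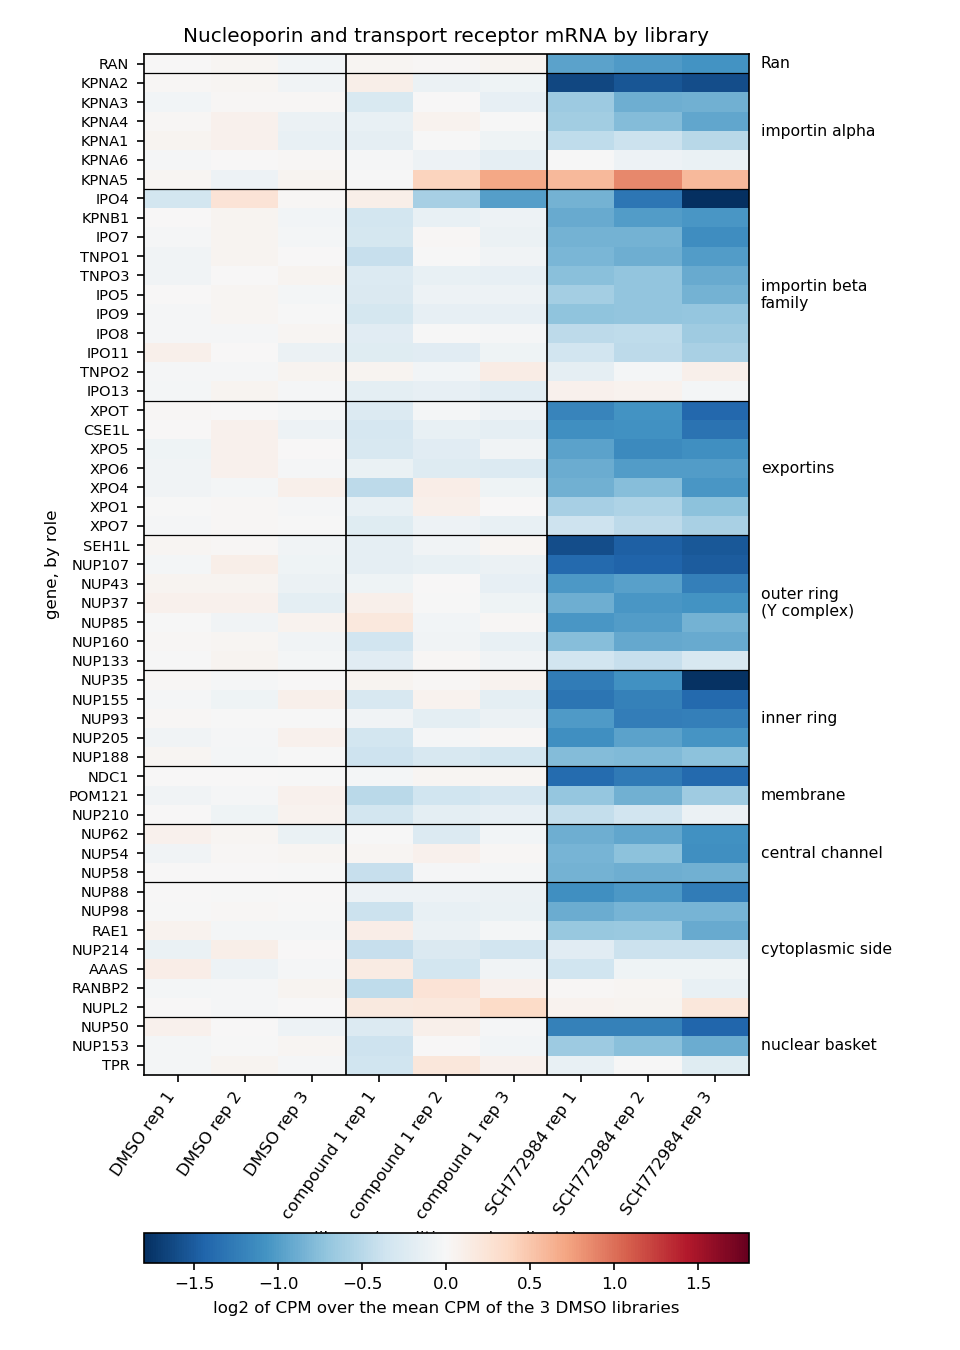
Each row is 1 of the 53 tested genes, grouped by role, and each column 1 of the 9 libraries; colour gives the log2 of CPM over the mean CPM of the 3 DMSO libraries. The 3 SCH772984 columns are blue in most rows, with KPNA5 red, and among the compound 1 columns replicate 1 is the bluest in many rows.

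Per length, the transcripts differed over a wide range before treatment. In RPKM (CPM per kilobase of the deposited gene length) the DMSO libraries gave 219 ± 8.67 for KPNA2 (mean ± SD, n = 3), 174 ± 10.7 for CSE1L, 129 ± 4.0 for RAN and 107 ± 3.76 for KPNB1. These 4 genes, which form the classical import cycle of adaptor, receptor, GTPase and adaptor recycling factor, were the highest of the group. Pore genes were lower: NDC1 led them at 62.1 ± 0.473 RPKM, next came NUP205 at 47.5 ± 2.31 and NUP188 at 39 ± 0.911, and most other pore genes lay between 12.2 for NUP107 and 30.3 for NUP153. NDC1 and IPO7 (60.4 ± 1.94), in neighbouring places of this order, did not differ beyond their spread. At the low end of the tested genes were NUPL2 at 4.87 ± 0.0562, KPNA5 at 0.683 ± 0.0387 and IPO4 at 0.539 ± 0.105.

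Sequences before the RefSeq start are shown for some of the genes described below, picked by hand, so other described genes may qualify too. Each printed stretch lies outside exons of GENCODE release 29. It comes from the last 170 bases of the RefSeq promoter window (250 bases before the start, GRCh38.p14). The windows were searched on both strands for 5 short strings: CACGTG (E-box), CCGGAAG (ETS), GCATGCG (part of the NRF1 site), TTTGAA (part of the cell cycle homology region) and CCAAT, with matches on either strand in capitals. XPO1 (chr2:61538357-61538491 (minus strand)) and XPOT (chr12:64404222-64404349 (plus strand)) are exportins that fell, SEH1L (chr18:12947841-12947994 (plus strand)) and NUP35 (chr2:183124273-183124354 (plus strand)) fell most in their rings, NUP188 (chr9:128947620-128947698 (plus strand)) and POM121 (chr7:72879187-72879356 (plus strand)) fell with both inhibitors, and IPO13 (chr1:43946780-43946938 (plus strand)) and TPR (chr1:186375326-186375423 (minus strand)) passed the test with neither. The stretches of XPO1, SEH1L, NUP35 and TPR lie inside the gene span of the deposited table, outside its exons, because that span begins before the RefSeq start, while those of XPOT, IPO13, NUP188 and POM121 lie before the span.
XPO1: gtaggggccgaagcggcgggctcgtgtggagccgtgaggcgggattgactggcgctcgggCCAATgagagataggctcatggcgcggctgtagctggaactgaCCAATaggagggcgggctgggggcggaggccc
XPOT: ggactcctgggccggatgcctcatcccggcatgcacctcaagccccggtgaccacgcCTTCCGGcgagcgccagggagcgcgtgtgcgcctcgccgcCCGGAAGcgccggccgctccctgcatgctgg
SEH1L: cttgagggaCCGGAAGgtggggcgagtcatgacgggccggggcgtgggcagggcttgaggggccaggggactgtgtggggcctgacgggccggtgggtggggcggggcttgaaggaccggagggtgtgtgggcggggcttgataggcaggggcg
NUP35: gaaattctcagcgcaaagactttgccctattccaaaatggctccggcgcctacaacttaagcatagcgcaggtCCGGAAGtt
NUP188: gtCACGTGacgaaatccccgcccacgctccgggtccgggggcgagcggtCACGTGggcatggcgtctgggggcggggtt
POM121: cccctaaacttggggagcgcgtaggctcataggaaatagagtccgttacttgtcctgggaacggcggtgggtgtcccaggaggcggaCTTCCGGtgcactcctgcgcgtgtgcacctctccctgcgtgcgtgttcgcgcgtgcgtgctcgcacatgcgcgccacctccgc
IPO13: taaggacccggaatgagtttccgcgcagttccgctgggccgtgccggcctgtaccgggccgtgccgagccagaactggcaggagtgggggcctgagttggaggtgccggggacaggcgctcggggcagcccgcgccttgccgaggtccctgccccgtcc
TPR: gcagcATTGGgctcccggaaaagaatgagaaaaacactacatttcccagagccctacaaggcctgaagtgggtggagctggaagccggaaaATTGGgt

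The strings differ from gene to gene. XPO1 holds CCAAT at −75 and −32, counted from the base before the start as −1 and giving the leftmost base of the match. XPOT holds the ETS letters at −113 and −73, SEH1L at −161, NUP35 at −97 and POM121 at −83. NUP188 has the E-box at −77 and −30, TPR has CCAAT at −165 and −79, and IPO13 has none of the 5. Among genes not printed, NUP133 and NUP210 also have none of the 5, and both were called lower with SCH772984. Of the 56 genes, 50 had a window in the RefSeq table. The ETS letters were found in 14 of them (28%, against 11.8% of 15843 windows of protein-coding genes), the E-box in 7 (14%, against 7.84%), the NRF1 part in 5 (10%, against 4.51%), the TTTGAA letters in 9 (18%, against 10.8%) and CCAAT in 22 (44%, against 34.5%). Beyond the printed stretches, KPNA2 has TTTGAA at −99 and CCAAT at −89 and −58, RAN has the E-box at −102, and NUP35 has TTTGAA at −35 and CCAAT at −24. A match says only that these letters lie there.

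RAN (ENSG00000132341, chr12:130871879-130877678) encodes the GTPase that drives the whole cycle. Its CPM was 628, 638 and 601 with DMSO, 639, 631 and 643 with compound 1 and 319.9, 307 and 295 with SCH772984. The 3 SCH772984 libraries lay below all others, and the compound 1 values overlapped those of DMSO. The log2 fold change was −1.02 (SE 0.06, edgeR adjusted p = 6.90e-20) with SCH772984 and 0.04 (95% interval −0.09 to 0.16) with compound 1.

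Importin alpha proteins are adaptors that recognise the classical nuclear localisation signal and hand cargo to importin beta. Of 7 genes 6 were tested, and with SCH772984 4 were lower, 1 was higher and 1 did not pass the test, with a median log2 fold change of −0.62. KPNA2 (ENSG00000182481, chr17:68035519-68046842) fell most of all 53 genes. Its CPM was 700.4, 709 and 658 with DMSO, 739, 643 and 656 with compound 1 and 221, 238 and 227 with SCH772984. The SCH772984 libraries lay far below all others, and compound 1 lay on both sides of DMSO. The log2 fold change was −1.60 (SE 0.06, edgeR adjusted p = 1.34e-26), and with compound 1 it was −0.02 (95% interval −0.16 to 0.12). KPNA5 (ENSG00000196911, chr6:116681187-116741866), a scarce adaptor here, went the other way. It had 8.0, 7.29 and 8.1 CPM with DMSO, 7.75, 10.3 and 12.6 with compound 1 and 11.6, 14.2 and 11.7 with SCH772984, so the SCH772984 libraries lay above all DMSO libraries while compound 1 spread over both. Its log2 fold change was 0.67 (SE 0.16, edgeR adjusted p = 2.27e-04) with SCH772984 and 0.40 (SE 0.19, edgeR adjusted p = 0.335) with compound 1.

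The 3 subfamilies of importin alpha did not move alike. KPNA3 and KPNA4, which form a subfamily, had log2 fold changes of −0.80 and −0.79 with SCH772984, both called lower. In the subfamily of KPNA1, KPNA5 and KPNA6, KPNA1 was −0.46 (called lower), KPNA6 was −0.08 (edgeR adjusted p = 0.293, not called) and KPNA5 was 0.67. Per length, KPNA2 made up 70.7% ± 0.458 (SD, n = 3) of importin alpha transcripts with DMSO, 71.5% ± 2.67 with compound 1 and 54.2% ± 2.34 with SCH772984. KPNA6 went from 5.74% ± 0.260 with DMSO to 12.6% ± 0.379 with SCH772984. Within each library KPNA2 per length was 11.6 to 12.7 times KPNA6 with DMSO, 12.2 to 13.4 times with compound 1 and 3.97 to 4.54 times with SCH772984, a ratio that no scaling of libraries changes.

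**Figure D3:**
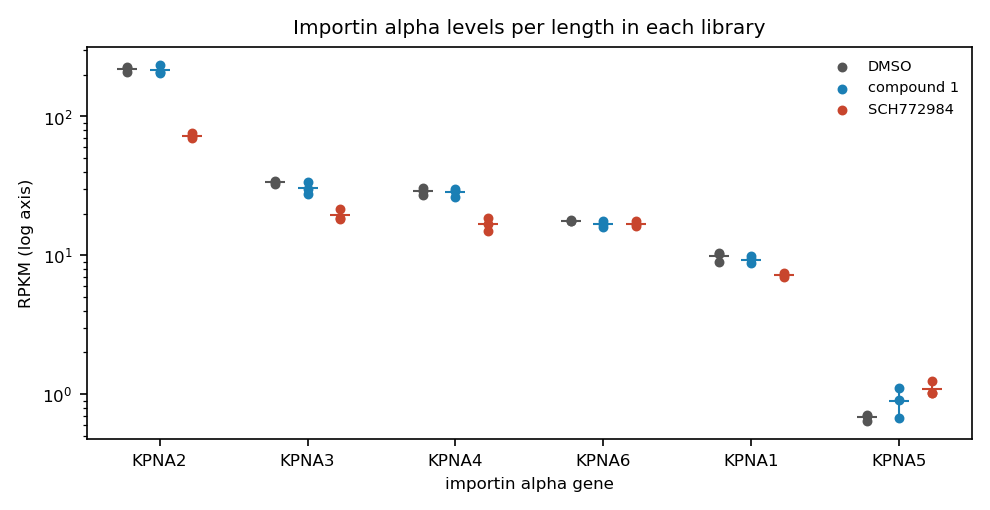
RPKM (vertical axis, logarithmic) of the 6 tested importin alpha genes (horizontal axis) in each library, with points for libraries, dashes for group means and bars for SD (n = 3). KPNA2 stands highest in every condition and drops with SCH772984, KPNA6 overlaps between conditions and KPNA5, the lowest, lies higher with SCH772984 than with DMSO.

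Importins of the beta family carry cargo themselves or through adaptors. With SCH772984 9 of 11 were lower and 0 were higher, with a median log2 fold change of −0.72. KPNB1 (ENSG00000108424, chr17:47649476-47685505), the importin beta that pairs with importin alpha, had 829, 850.5 and 793 CPM with DMSO, 658, 748 and 775 with compound 1 and 439, 412 and 397 with SCH772984. Here the compound 1 libraries also lay below all DMSO libraries, and the SCH772984 libraries lay well below both. Its log2 fold change was −0.99 (SE 0.06, edgeR adjusted p = 2.43e-19) with SCH772984 and −0.18 (SE 0.07, edgeR adjusted p = 0.242) with compound 1. IPO7 (−0.94) and IPO5 (−0.72), importers of ribosomal proteins, TNPO1 (−0.90), which imports hnRNP proteins, TNPO3 (−0.80), which imports splicing factors of the SR family, IPO9 (−0.72), a histone importer, IPO8 (−0.53) and IPO11 (−0.47) were also lower on the log2 scale.

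IPO4 (ENSG00000196497, chr14:24180219-24188964), an importer of histones and ribosomal proteins, had the lowest log2 fold change of the beta family but few reads. It had 2.15, 3.2 and 2.74 CPM with DMSO, 2.91, 1.78 and 1.35 with compound 1 and 1.5, 1.1 and 0.738 with SCH772984. The SCH772984 libraries lay below those with DMSO, and the compound 1 libraries overlapped both. The change was −1.30 (SE 0.35, edgeR adjusted p = 0.00115) with SCH772984 and −0.42 (SE 0.33, edgeR adjusted p = 0.589) with compound 1. With a replicate left out, IPO4 ranged with compound 1 from −0.77 (without compound 1 replicate 1) to −0.20 (without compound 1 replicate 3). Its exons share 70.1% of their bases with other annotated genes, mainly AL136295.4 on the same strand, so its count is uncertain.

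IPO13 (ENSG00000117408, chr1:43946939-43968022), a receptor that imports some cargoes and exports others, did not pass the test. It had 56.1, 60 and 57 CPM with DMSO, 50.9, 52.3 and 50.8 with compound 1 and 60.6, 60.4 and 56.5 with SCH772984, and the SCH772984 and DMSO libraries overlapped. The log2 fold change was 0.03 (SE 0.08, edgeR adjusted p = 0.743), and its sign turned with the trend of gene length removed (−0.08). TNPO2, the close paralogue of TNPO1, was −0.03 (95% interval −0.17 to 0.10). Within a library, TNPO1 per length was 1.67 to 1.82 times TNPO2 with DMSO, 1.25 to 1.79 times with compound 1 and 0.806 to 1.09 times with SCH772984. This pair, like the other pairs set side by side, was picked after its values were seen.

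Exportins carry cargo out of the nucleus together with Ran bound to GTP. All 7 were lower with SCH772984, with a median log2 fold change of −0.98. XPOT (ENSG00000184575, chr12:64404350-64451127), the exporter of tRNA, fell most in this class. Its CPM was 308, 304 and 294 with DMSO, 256, 295 and 283 with compound 1 and 132, 143 and 113 with SCH772984. All SCH772984 libraries lay far below the others, and compound 1 overlapped DMSO. The log2 fold change was −1.23 (SE 0.07, edgeR adjusted p = 6.88e-20) with SCH772984 and −0.12 with compound 1 (edgeR adjusted p = 0.465). CSE1L, which returns importin alpha to the cytoplasm, was −1.18, XPO5, the exporter of microRNA precursors, −1.08, XPO6, the exporter of actin with profilin, −0.98, and XPO4 −0.90 on the log2 scale.

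XPO1 (ENSG00000082898, chr2:61477849-61538626), the main exporter of proteins with leucine-rich export signals, changed less than most exportins. It had 654, 665 and 648 CPM with DMSO, 598, 697 and 657 with compound 1 and 434, 446 and 395 with SCH772984. The SCH772984 libraries did not overlap the others, while compound 1 lay on both sides of DMSO. Its log2 fold change was −0.63 (SE 0.06, edgeR adjusted p = 7.10e-13) with SCH772984 and −0.01 (95% interval −0.15 to 0.14) with compound 1. XPO7 (ENSG00000130227, chr8:21919671-22006585) fell least of the exportins. Its CPM was 296, 303 and 298 with DMSO, 258, 281 and 274 with compound 1 and 231, 217 and 200.2 with SCH772984. Both treated groups lay below DMSO, compound 1 narrowly, and the log2 fold change was −0.48 (SE 0.06, edgeR adjusted p = 5.19e-09) with SCH772984. XPOT per length was 0.926 to 0.976 times XPO7 with DMSO and 0.53 to 0.618 times with SCH772984.

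**Figure D4:**
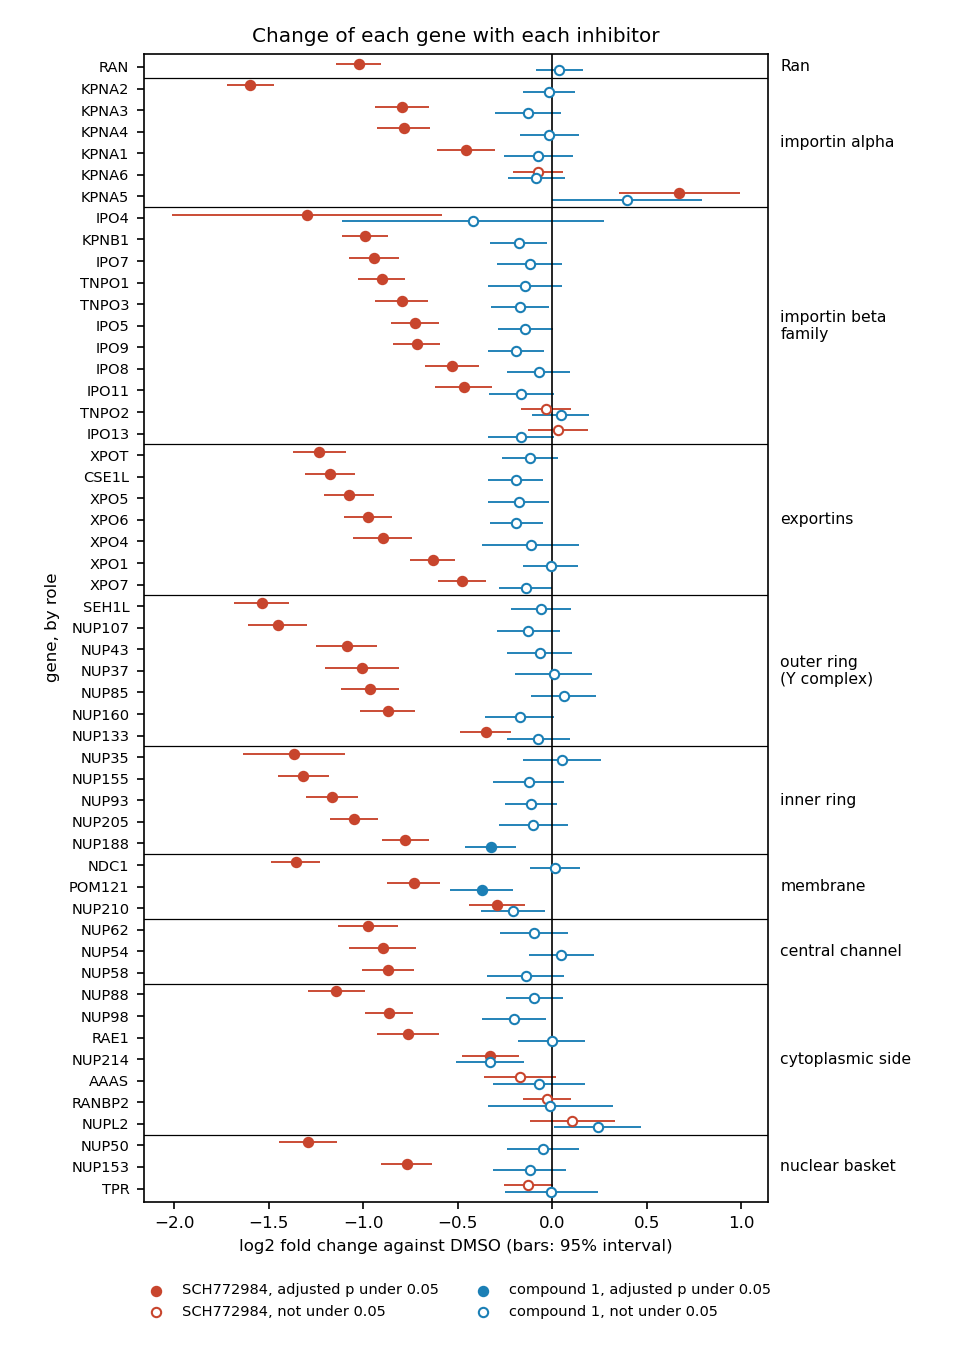
Log2 fold change against DMSO (horizontal axis) of each of the 53 tested genes, by role, with SCH772984 in red and compound 1 in blue; filled points passed an edgeR adjusted p under 0.05 and bars are 95% intervals. Red points lie left of 0 for 50 genes and 45 of them are filled on that side, whereas blue points lie close to 0 and only those of NUP188 and POM121 are filled.

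The outer rings are made of the Y complex, which coats the curved membrane on both faces of the pore. All 7 measured subunits were lower with SCH772984, with a median log2 fold change of −1.01. SEH1L (ENSG00000085415, chr18:12947133-12987536), which also belongs to a complex that controls mTORC1, had 149.6, 148 and 140.3 CPM with DMSO, 130.3, 140.1 and 149 with compound 1 and 48.1, 52.8 and 50.7 with SCH772984. The SCH772984 libraries stood clear of all others, and the log2 fold change was −1.54 (SE 0.07, edgeR adjusted p = 2.46e-23). NUP133 (ENSG00000069248, chr1:229440260-229508341), at the stem of the complex, fell least. It had 129, 134 and 128 CPM with DMSO, 113, 132 and 125 with compound 1 and 103, 97.7 and 107 with SCH772984. There was no overlap between SCH772984 and DMSO, and the log2 fold change was −0.35 (SE 0.07, edgeR adjusted p = 1.06e-05). Its direct partner NUP107 was −1.45, and NUP43, NUP37, NUP85 and NUP160 were −1.09, −1.01, −0.96 and −0.87. Subunits of 1 complex thus differed in their log2 changes, and NUP107 per length was 0.551 to 0.595 of NUP133 with DMSO, 0.512 to 0.587 with compound 1 and 0.245 to 0.279 with SCH772984.

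The inner ring links the membrane to the central channel. All 5 genes were lower with SCH772984, with the lowest median of the pore's parts, −1.17. NUP35 (ENSG00000163002, chr2:183117513-183161680), a membrane-binding subunit with low counts, had 28.6, 27.8 and 28.4 CPM with DMSO, 29.3, 28.7 and 29.6 with compound 1 and 11.8, 13.3 and 8.26 with SCH772984. Compound 1 lay just above DMSO and SCH772984 far below both, and the log2 fold change was −1.37 (SE 0.13, edgeR adjusted p = 3.30e-12). NUP155 was −1.32, NUP93, the linker of the ring, −1.17, and NUP205, a large scaffold, −1.05. NUP188 (ENSG00000095319, chr9:128947699-129007096), the paralogue of NUP205, fell least with SCH772984 and was 1 of the 2 genes called with compound 1. It had 322, 307 and 313 CPM with DMSO, 243, 256 and 250.2 with compound 1 and 183, 181 and 187 with SCH772984. The 3 groups did not overlap, with compound 1 in between. The log2 fold change was −0.78 (SE 0.06, edgeR adjusted p = 1.80e-15) with SCH772984 and −0.33 (SE 0.06, edgeR adjusted p = 0.0314) with compound 1.

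Transmembrane nucleoporins anchor the pore. All 3 tested were lower with SCH772984, with a median of −0.73. NDC1 (ENSG00000058804, chr1:53765460-53838860) had 321, 320.1 and 316 CPM with DMSO, 312, 327 and 326 with compound 1 and 122, 132 and 120.4 with SCH772984. SCH772984 stood far below while compound 1 and DMSO overlapped, and the log2 fold change was −1.36 (SE 0.06, edgeR adjusted p = 2.11e-23). POM121 (ENSG00000196313, chr7:72879365-72951440) was the other gene called with compound 1. It had 153, 157 and 169 CPM with DMSO, 114, 125 and 129.9 with compound 1 and 98.4, 87.9 and 103 with SCH772984, with no overlap between any of the groups. Its log2 fold change was −0.73 (SE 0.07, edgeR adjusted p = 8.01e-13) with SCH772984 and −0.37 (SE 0.08, edgeR adjusted p = 0.0376) with compound 1. POM121 has a near-identical copy, POM121C, so reads could be split between them, and POM121C was −0.42 with SCH772984 (called lower) and −0.25 with compound 1 (edgeR adjusted p = 0.0837). NUP210 (ENSG00000132182, chr3:13316235-13420309) changed least, with 140.5, 132 and 146 CPM with DMSO, 111, 124 and 127 with compound 1 and 104, 109.8 and 129 with SCH772984. Its SCH772984 libraries lay just below the DMSO libraries, and the log2 fold change was −0.29 (SE 0.07, edgeR adjusted p = 4.56e-04). With library size alone in place of TMM it was −0.12 (edgeR adjusted p = 0.145).

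NUP62, NUP54 and NUP58 together fill the central channel with repeats that receptors pass through. All 3 were lower with SCH772984, with log2 fold changes between −0.97 and −0.87. NUP62 (ENSG00000213024, chr19:49906825-49929763) had 105, 102 and 91.8 CPM with DMSO, 99, 84.1 and 96.6 with compound 1 and 54.1, 52.2 and 46.9 with SCH772984. NUP58 (ENSG00000139496, chr13:25301524-25349800) had 139, 138 and 137 CPM with DMSO, 104, 136 and 135 with compound 1 and 76.9, 74.9 and 75.6 with SCH772984. In both genes SCH772984 stood apart from the other libraries, and compound 1 replicate 1 was the lowest compound 1 library for NUP58 but the highest for NUP62. The log2 fold change was −0.97 (SE 0.08, edgeR adjusted p = 3.11e-15) for NUP62, −0.87 (SE 0.07, edgeR adjusted p = 1.56e-15) for NUP58 and −0.90 for NUP54. Of the exon bases of NUP62, 21.1% are shared with other annotated genes, as are 22.6% in IPO11, 18.9% in POM121, 18.7% in NUP88, 16.3% in KPNA1 and 13.0% in NUPL2, and whether reads were counted by strand is not given in the sources used here.

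At the cytoplasmic face mRNA is remodelled and cargo released. Of 7 genes there, 4 were lower and 0 were higher with SCH772984, with a median log2 fold change of −0.33. NUP88 (ENSG00000108559, chr17:5360963-5420160), a subunit of the filament platform, had 111, 109 and 110.3 CPM with DMSO, 103, 103 and 102 with compound 1 and 51.2, 53.6 and 45.9 with SCH772984. Both treated groups lay below DMSO, compound 1 by a little, and the log2 fold change was −1.14 (SE 0.08, edgeR adjusted p = 4.93e-18) with SCH772984. NUPL2 (ENSG00000136243, chr7:23181827-23201011), a cofactor of mRNA export, had 21.3, 21 and 21.5 CPM with DMSO, 23.9, 24.2 and 27 with compound 1 and 22.3, 21.9 and 24.6 with SCH772984. The treated libraries lay above DMSO in every case, by a margin that did not pass the test with SCH772984 (0.11, SE 0.11, edgeR adjusted p = 0.397) or with compound 1 (0.24, SE 0.11, edgeR adjusted p = 0.308).

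NUP98, whose transcripts also encode the Y complex protein NUP96, was −0.86 and its mRNA export partner RAE1 −0.76 on the log2 scale with SCH772984. NUP214, which recruits an mRNA export helicase, was −0.33 with SCH772984 (called lower) and −0.33 with compound 1 (edgeR adjusted p = 0.0813). The compound 1 value of NUP214 passed the edgeR test with the replicate block (adjusted p = 0.0212), with no filter on low counts (0.0158), with the length trend removed (0.0480) and without compound 1 replicate 1 (0.00759), and also passed with DESeq2 (0.0426), so its call there was none in 10 of 15 other settings. With library size alone its SCH772984 call was lost (−0.15, edgeR adjusted p = 0.0605). NUP88 and NUP214 are partners, and NUP88 per length was 2.67 to 3.14 times NUP214 with DMSO, 3.21 to 3.59 times with compound 1 and 1.54 to 1.83 times with SCH772984. AAAS, which binds NDC1, was −0.17 (95% interval −0.36 to 0.02). RANBP2, the giant protein of the cytoplasmic filaments and a SUMO ligase, was −0.03 (95% interval −0.16 to 0.10). Its near-identical RGPD copies had at most 2.20 CPM as a group mean, against 206 for RANBP2 with DMSO.

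The nuclear basket divided. NUP50 (ENSG00000093000, chr22:45163841-45188015), which helps release importin alpha from its cargo, had 125, 119 and 111 CPM with DMSO, 99.8, 125 and 117 with compound 1 and 50.7, 50.9 and 44.1 with SCH772984. SCH772984 lay below all other libraries, and the log2 fold change was −1.29 (SE 0.08, edgeR adjusted p = 1.22e-19). TPR (ENSG00000047410, chr1:186311652-186375693), the coiled-coil protein that forms the basket's struts, had 234, 249 and 237 CPM with DMSO, 187, 275 and 252 with compound 1 and 217, 238 and 206 with SCH772984. All 3 groups overlapped, and the log2 fold change was −0.13 (SE 0.06, edgeR adjusted p = 0.0731), with the opposite sign when library size alone set the scale (0.05). NUP153, which anchors TPR, was −0.77 and was called lower. NUP50 per length was 0.697 to 0.79 of TPR with DMSO, 0.676 to 0.793 with compound 1 and 0.317 to 0.346 with SCH772984.

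How many of the calls depended on the processing was checked over 15 other settings. Of the 45 genes lower with SCH772984, 43 passed the test in the same direction in each setting, the exceptions being NUP210 and NUP214 with library size alone. KPNA5 was called higher in each. The 7 genes not called were each called in at least 1 setting. After removal of a trend of fold change with gene length, 50 genes were lower, with RANBP2, TPR, AAAS, KPNA6 and TNPO2 among them. The share of all genes called lower was then 42.1%, against 35.5% without that step, and the median of all genes was −0.11. With library size alone 4 genes were higher, among them IPO13, NUPL2 and RANBP2, so RANBP2 took either sign. Of all genes, 45.1% were higher and 28.3% lower in that fit, and library size alone moved the median of all genes from 0.03 to 0.20 on the log2 scale.

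The compound 1 differences were small and changed with the libraries used. The 2 calls, NUP188 and POM121, were both lost when any DMSO replicate or compound 1 replicate 3 was left out. In those fits 0.0228 to 0.0458% of all genes were lower and 0.0380 to 0.114% higher, against 0.374% and 0.49% with all libraries. POM121 was also lost without compound 1 replicate 2 (0.183% and 0.206% of all genes) and with library size alone (0.195% and 0.662%). Compound 1 replicate 1 stood apart from the other 2. Its median log2 difference from the DMSO mean over the 53 genes was −0.20, against −0.05 and −0.07 in replicates 2 and 3. The gap followed gene length: the 26 longer genes had a median of −0.32 in replicate 1 and the 27 shorter genes −0.03, whereas in replicates 2 and 3 the medians were −0.05 to −0.08 for either group of genes. Long genes such as RANBP2 (150.4, 243 and 217 CPM in compound 1 replicates 1 to 3) and TPR showed it plainly. Not every long gene did: NUP93 had 187, 172 and 181 CPM in the same libraries. Without compound 1 replicate 1, 4 genes were lower with compound 1 and 1, KPNA5, was higher, with a median of −0.06. Of all genes tested, 6.10% were then lower and 3.46% higher. What set this library apart was not tested.

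**Figure D5:**
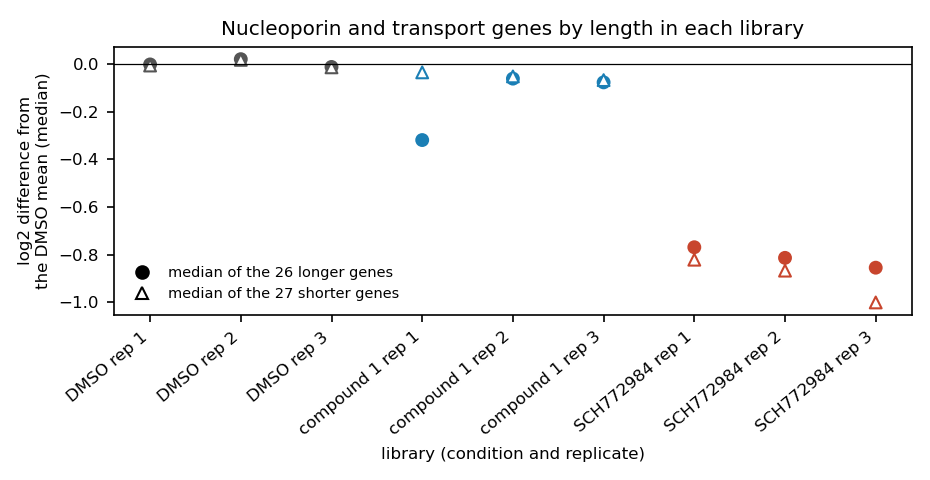
Median log2 difference from the DMSO mean (vertical axis) in each library (horizontal axis), with circles for the 26 longer and triangles for the 27 shorter of the 53 tested genes. Circle and triangle lie far apart in compound 1 replicate 1, at −0.32 and −0.03, and close together in replicates 2 and 3.

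Direct comparison of the inhibitors showed where they differed. Genes of the rings, NDC1, NUP50, Ran and all exportins were lower with SCH772984 than with compound 1. Of the 42 calls in this comparison 40 were kept in all 15 other settings, the exceptions being NUP133 (kept in 11) and IPO11 (kept in 13). For NUP188 this difference was −0.44 (edgeR adjusted p = 5.28e-05) and for POM121 −0.35 (edgeR adjusted p = 0.0023), so the genes called with compound 1 fell further with SCH772984. For NUP214 the difference was 0.01 (95% interval −0.19 to 0.21) and for NUP210 −0.08 (95% interval −0.28 to 0.12). These intervals bound how far the inhibitors could differ on those genes. The 3 comparisons share libraries, so their values are not independent.

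Genes outside the rule that work with this machinery moved in part the same way with SCH772984. In this comparison 35.5% of all genes tested were lower and 37.2% higher, to be set beside each count below. Of 6 genes of the Ran cycle 5 were lower and 0 were higher. RANBP1, a cofactor of Ran GTP hydrolysis, was −1.56 (edgeR adjusted p = 2.13e-25), and RCC1, the nuclear exchange factor that loads Ran with GTP, was −1.50. NUTF2, which imports Ran, fell least of those called (−0.31, edgeR adjusted p = 3.38e-05). Of 4 other pore genes tested 3 were lower, led by AHCTF1, which seeds pore assembly on chromatin (−0.78, edgeR adjusted p = 2.74e-13), while POM121C fell least of them. Of 6 genes listed as other karyopherins and adaptors 4 were lower and 1 was higher, and both of the genes named next are known for other roles. LTV1, a ribosome assembly factor for the small subunit, was −1.25 (edgeR adjusted p = 4.50e-14), and BPNT1, a nucleotidase and the 1 called higher, was 0.58 (edgeR adjusted p = 4.94e-08). Of the near-identical copies of pore and Ran genes, 5 of 10 could be tested, and 2 were lower and 1 higher by edgeR, against 1 lower and 1 higher by DESeq2. The edgeR share of copies lower (40%) was near the 35.5% of all genes. One of the copies, POM121C, is also among the other pore genes. RANP1, a Ran pseudogene, was −0.96 at 1.75 CPM with DMSO, and RGPD5 was 1.53 at 0.748 CPM, so both were scarce. With compound 1, 0 of the 6 Ran cycle, 4 pore, 6 karyopherin and adaptor and 2 copy genes tested passed the adjusted threshold by edgeR or DESeq2. At edgeR's unadjusted p under 0.05, 1, 2, 0 and 1 of them were lower and 0 were higher, against 7.69% and 7.35% of all genes.

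All 10 cell division markers were lower with SCH772984, with a median of −1.77, beside −1.60 for KPNA2, the lowest of the transport genes. RRM2, a subunit of ribonucleotide reductase, fell most (−2.66, edgeR adjusted p = 1.31e-32) and CCNB1, the mitotic cyclin, least (−1.67). With compound 1, 1 of the 10 was called, the replication helicase gene MCM2 (−0.35, edgeR adjusted p = 0.0299). Among the ERK output genes, DUSP6, a phosphatase of ERK, had 0 or 1 counts in each SCH772984 library, so its fitted log2 fold change of −6.82 depends on the prior count, and CCND1, cyclin D1, fell least (−0.70).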

How the data were processed

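RNA-seq of 9 MIA PaCa-2 libraries, 3 for each of DMSO, compound 1 and SCH772984, was used. The authors deposited read counts per gene, whole numbers without normalization, for 58735 genes whose positions matched GENCODE release 29 on GRCh38. The submitters' processing notes name HISAT2 2.0.5, featureCounts 1.5.0-p3 and hg38, and the strand setting is not given in the sources used here. Reads of overlapping genes may therefore be shared, and 7 of the 56 genes share over 10% of their exon bases with another gene. Totals of 9464432 to 13887859 counts set the precision.

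Samples were grouped by their labels. Each comparison was fitted on its own 2 groups with edgeR 4.0.16 in R 4.3.3 (quasi-likelihood test, robust, TMM, filterByExpr with a minimum count of 10 and a minimum total of 15), with Benjamini-Hochberg adjustment over all genes tested and a threshold of 0.05. The scripts were tested on simulated data. The alternatives were DESeq2 1.42.0, RLE factors, library size alone, other filters, a fit of all 9 libraries, a replicate block, removal of a trend with gene length and each replicate left out. Promoter windows came from RefSeq (GRCh38.p14).

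Described in full were RAN, XPO1 and KPNB1, the genes with the lowest and highest log2 fold change with SCH772984 in each role, the 3 with the largest change with compound 1 and those called with it. Of each related list, the called genes with the lowest and highest change were named, and any further gene was picked with its values in view. The members and lists were chosen with earlier results of these data known.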

Additional observations from a re-analysis of the deposited data

How the results depend on the processing

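Of the 45 genes lower with SCH772984, 43 kept their call in all 15 other settings. For SCH772984 against DMSO, the median log2 fold change of the 53 genes was −0.69 with library size alone, −0.79 with at least 10 counts in every library, −0.82 among protein-coding genes and −1.04 with the length trend removed. A 2-fold minimum left 17 lower and 0 higher (10.6% and 18.2% of all genes), and library size alone gave 4 higher (45.1% of all genes). With compound 1, 1 gene was lower with library size alone (0.195% of all genes) and 0 were at least 2-fold lower. At an unadjusted p under 0.05, 12 were lower and 1 higher (7.69% and 7.35% of all genes). Leave-one-out fits gave 0 to 4 lower and 0 to 1 higher, against 0.0228 to 6.10% and 0.0380 to 3.46% of all genes. For SCH772984 against compound 1, 14 were at least 2-fold lower (10.1% of all genes). There 2 were higher with library size alone (39.9% of all genes). With at least 10 counts, all 9 libraries or protein-coding genes only, 1 was higher (34.4%, 34.0% and 35.0% of all genes). At an unadjusted p 1 was higher, with 4878 of 13863 genes in all. The median there was −0.61 with library size alone and −0.93 with the length trend removed, and −0.66 to −0.79 with a replicate left out. Values near 0 turned sign. With SCH772984 against DMSO, IPO13 was −0.00662 without a filter, −0.0778 with the length trend removed and −0.0112 to 0.0590 with a replicate left out, and TPR was 0.0487 with library size alone. With compound 1, library size alone gave 0.0112 for KPNA2, 0.0254 for TPR and 0.0222 for XPO1, the length trend −0.00440 for NDC1, 0.0160 for TPR and 0.0205 for XPO1, and protein-coding genes only 0.000123 for TPR. Leaving out a replicate gave −0.0790 to 0.0141 for KPNA2, −0.00369 to 0.0400 for NDC1, −0.130 to 0.0388 for NUP50, −0.131 to 0.143 for TPR and −0.0676 to 0.0519 for XPO1. Against compound 1, library size alone turned the cytoplasmic side's median to 0.0112, NUP210 to 0.0582, NUPL2 to 0.0112 and TPR to 0.0238. The causes were not tested. Correlations of same-numbered libraries were −0.0787 to 0.107, within the range of other pairs of libraries (−0.101 to 0.149). The labels do not say whether the numbers pair samples. A replicate block gave 45 lower and 1 higher with SCH772984 (35.6% and 37.2% of all genes). With compound 1 it gave 3 and 0, with 219 and 193 of 12849 genes in all, against 48 and 63 without the block. Between the inhibitors it gave 42 and 0 (31.9% and 33.1% of all genes).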

Other observations

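The nuclear lamina and envelope, the layer in which pores sit, changed alongside them with SCH772984. Of 11 genes tested 9 were lower and 1 was higher, with a median log2 fold change of −0.65. Over all genes tested the shares were 35.5% and 37.2%, with a median of 0.03. LMNB1, lamin B1, was −1.92 (edgeR adjusted p = 7.99e-29), from 385 ± 0.682 CPM with DMSO (SD, n = 3) to 102 ± 4.31 with SCH772984. LMNB2 was −1.35, TMPO, which binds lamins, −1.06, and LMNA, the gene of the A-type lamins, −0.31, on the log2 scale. SUN1, which spans the inner membrane, was higher (0.21, edgeR adjusted p = 0.00141). LEMD3 was −0.01 and did not pass the test, and SYNE1 was too low to test. With compound 1, 0 of the 11 passed the edgeR adjusted threshold. At edgeR's unadjusted p under 0.05 1 was lower (7.69% of all genes), and with DESeq2 1 was lower (0.926% of all genes).

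Factors of mRNA export were divided in the same comparison. Of 17 tested 9 were lower and 1 was higher, with a median of −0.26. Of all genes tested, 35.5% were lower and 37.2% higher, with a median of 0.03. ALYREF, an adaptor that hands mRNA to the exporter, was −1.56 (edgeR adjusted p = 1.41e-24). NXT1 was −1.36, while its partner NXF1, the exporter itself, was 0.11 (edgeR adjusted p = 0.199). The paralogous helicases DDX39A and DDX39B went opposite ways: DDX39A was −1.25 and DDX39B 0.43 (edgeR adjusted p = 8.79e-05). THOC3 and THOC5 of the THO complex were −0.90 and −0.91, while THOC2 and THOC6 were 0.02 and −0.00 and did not pass the test. With compound 1, 0 of the 17 passed the adjusted threshold by edgeR or DESeq2. At edgeR's unadjusted p under 0.05 2 were lower and 3 higher, against 7.69% and 7.35% of all genes.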
